A study of Mus musculus with 24 samples.

Results

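Liver expression of 8 genes known to respond to glucocorticoids, or to carry that response, was followed in mice that had been fasted or given sugar to drink. The 8 genes are Nr3c1, Fkbp5, Tsc22d3, Zbtb16, Sgk1, Dusp1, Errfi1 and Cdkn1a, found by name among the array's gene names. Earlier results of these data were known when the genes were chosen. They are 8 of 23966 genes tested and are covered by 18 probes, of which 15 were bright enough to keep. The mice were male wild-type C57Bl/6J animals, 8 weeks old and on chow, in 4 groups of 6. One group drank plain tap water (the water group), one drank water with 20% glucose, one drank water with 20% fructose, and the last was fasted; each regime lasted 24 hours and all livers were taken at ZT16, the zeitgeber time of the labels. Each mouse gave 1 Cy3-labelled Agilent array. No genotype or drug differed between groups, no steroid was given, and corticosterone was not among the measurements analysed here.

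Glucocorticoids, corticosterone in the mouse, are adrenal steroids that rise in fasting and stress. They bind the receptor encoded by Nr3c1, which is held ready in the cytoplasm by HSP90 and its cochaperones and then acts in the nucleus, on glucocorticoid response elements or through other factors. In the liver the hormone raises gluconeogenesis and amino acid breakdown and dampens inflammatory signalling. Several of the genes studied here act as feedback: Fkbp5 lowers the receptor's affinity for hormone, Tsc22d3 (GILZ) and Dusp1 damp inflammatory and MAP kinase signalling, and Errfi1 (MIG6) restrains the EGF receptor. Many of them also answer other signals, such as insulin, FOXO factors, p53 or cytokines.

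Levels below are log2 processed intensities relative to the array's 75th percentile, so 0 is that percentile, and each gene is given by its brightest kept probe. Between 32516 and 36274 probes per array were well above background, arrays of one group correlated at 0.985 or more across genes, and no member spot was saturated. Hepatocyte markers were bright on every array: the summed level of 10 of them lay between 6429 and 8438 times the array's 75th percentile. The sum was 7140 to 8421 with water, 6727 to 7336 with glucose, 6429 to 7086 with fructose and 7528 to 8438 when fasted. In pieces of whole liver, fewer cells of a type and less RNA per cell cannot be told apart. The 3 array slides each held 2 mice of every group.

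Fasting moved most of the 8 genes, and the sugars moved none past the threshold. Against water, 5 rose in the fasted liver (Cdkn1a, Zbtb16, Fkbp5, Sgk1 and Errfi1), Nr3c1 fell, and Dusp1 and Tsc22d3 were not called. A gene was called at a Benjamini-Hochberg adjusted p under 0.05 in limma over all genes. The share of all genes called in this comparison was 42.6%, with 21.7% higher and 20.9% lower, so a call by itself sets a gene little apart from the liver as a whole. In 6 of the 8 genes, the same 6 that were called, the 6 fasted mice lay outside the range of all 18 fed mice. Over all genes, called or not, this held for 17.1%. The share among called genes alone was not computed. The comparisons of fasting with glucose and with fructose use the same 6 fasted mice and so are not independent of it. They called 6 and 7 of the 8 genes, where 44.6% and 45.3% of all genes were called. The 8 genes and the lists below were chosen with earlier results known, so their counts beside these shares are descriptions.

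**Figure D1:**
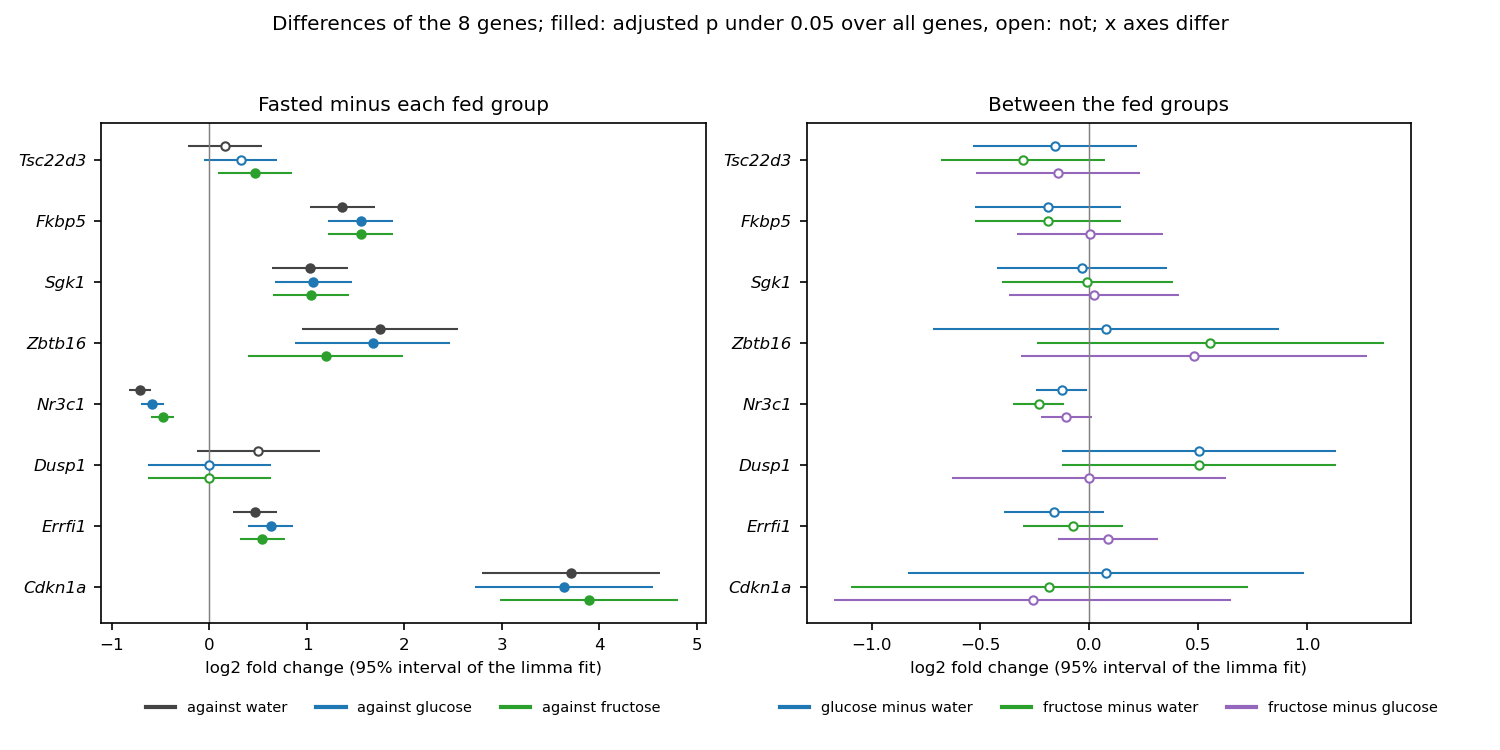
Log2 fold changes with 95% intervals of the limma fit for the 8 genes: the left panel shows fasted minus each fed group and the right panel the differences between fed groups, on different x axes. Filled points passed an adjusted p of 0.05. Cdkn1a lies farthest right at 3.71, 3.64 and 3.90, Nr3c1 is the only gene left of 0 in all 3 fasting comparisons, and every point on the right is open.

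Nr3c1, the receptor itself, was lowest in the fasted mice and had the narrowest spread. Its log2 level in the water group ran from 4.43 over a median of 4.52 to 4.65, with glucose from 4.24 over 4.40 to 4.54, with fructose from 4.19 over 4.28 to 4.42, and fasted from 3.75 over 3.79 to 3.90. The highest fasted mouse thus lay below the lowest of the fed mice. Fasted minus water was -0.71 (SE 0.057, limma adjusted p = 8.66e-10), a level 1.64-fold lower. Against glucose and fructose the differences were -0.59 and -0.48. The order of the means was water, glucose, fructose and fasted, from 4.53 ± 0.075 (SD, n = 6) down to 3.82 ± 0.069. The step from glucose to fructose was not called, and neither was that from water to glucose; the step from fructose to fasted was (limma adjusted p = 2.81e-07). Within the 3 slides the fasting difference was -0.68, -0.70 and -0.77.

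Fkbp5, the FK506-binding immunophilin that joins the receptor complex as a brake, moved the other way. The levels of single mice ran from 4.22 over 4.44 to 5.00 with water, from 3.75 over 4.29 to 4.99 with glucose, from 4.08 over 4.35 to 4.6 with fructose, and from 5.79 over 5.85 to 6.08 when fasted. The fed groups covered one another, and the fasted mice stood above them as a tight cluster (SD 0.10, against 0.33 in the water group). Fasted minus water was 1.36 (SE 0.16, limma adjusted p = 3.56e-07), or 2.57-fold. The gap was 1.57, 1.17 and 1.34 within the slides, and 1.55 against both glucose and fructose. The order of the other 3 groups (water at 4.51, fructose and glucose at 4.32) was not resolved: none of these differences was called.

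The probes of Fkbp5 are spread over the gene, and one that lies in coding sequence is shown because it reads the message apart from the brightest probe, which lies farther along the transcript. It is the array's 60-base probe A_52_P481493, at mm9 chr17:28574995-28575054, from base 351 of the RefSeq transcript that the array names. At this probe fasted minus water was 1.12 (SE 0.31, adjusted p = 0.00488 in a limma fit over all kept probes). The companion probe shown for Zbtb16, A_66_P119534, crosses an exon junction: its 60 bases span 52017 bases of mm9, chr9:48473399-48525415.
Fkbp5 probe A_52_P481493: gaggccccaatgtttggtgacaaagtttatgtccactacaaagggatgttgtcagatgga
Zbtb16 probe A_66_P119534: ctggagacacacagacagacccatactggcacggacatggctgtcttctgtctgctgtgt

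Zbtb16 (PLZF), a zinc finger repressor, combined a large rise with uneven fed mice. Its level ran from 1.18 over 1.99 to 3.66 with water, from 1.26 over 2.19 to 3.46 with glucose, from 2.21 over 2.81 to 3.33 with fructose and from 3.81 over 4.01 to 4.08 when fasted. The best fed mouse came close to the lowest fasted one, while others lay far below. The SD was 0.94, 0.89 and 0.50 in the fed groups and 0.097 in the fasted group. The difference between fasted and water mice was 1.75 (SE 0.38, limma adjusted p = 0.000679), or 3.36-fold, and it was 1.67 against glucose and 1.19 against fructose. Within the slides the differences from water were unequal, at 2.43, 0.58 and 2.23. The junction-spanning probe shown above gave 1.36 (SE 0.31, adjusted p = 0.000942). Fructose stood above water by 0.56 and above glucose by 0.48, neither called, with an interval from -0.24 to 1.35 for the first. Both values moved with single mice: the first was 0.35 without water mouse 2 and 0.84 without water mouse 6. The second was 0.27 and 0.32 without glucose mouse 1 or 3, and leaving out 1 mouse put it between 0.27 and 0.71.

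Tsc22d3, which encodes GILZ and is among the most widely used markers of glucocorticoid action, was not called between fasting and water. Single mice ran from 5.81 over 6.14 to 6.36 with water, from 5.29 over 5.96 to 6.50 with glucose, from 5.13 over 5.74 to 6.25 with fructose and from 6.08 over 6.25 to 6.39 when fasted. The groups overlapped, and the fasted mice lay within the upper part of the fed range. Fasted minus water was 0.16 (SE 0.18, interval -0.22 to 0.54, limma adjusted p = 0.524), and that interval includes the 0.47 found for Errfi1. Against fructose the difference of 0.47 passed the threshold (SE 0.18, limma adjusted p = 0.0412). That call did not hold in 15 of 25 alternative settings, among them leaving out any 1 of fasted mice 2, 3, 5 and 6 or fructose mice 1, 3 and 6, where the adjusted p reached 0.124. A second, dimmer probe in the same transcript, 707 bases away, gave 0.36 (SE 0.17, adjusted p = 0.1) against water, and 0.62 against both glucose (adjusted p = 0.00488) and fructose (adjusted p = 0.00489), both called in the limma fit over all kept probes. The nearest family members moved apart: Tsc22d1 fell by 1.19, while Tsc22d2 rose by 0.56 and Tsc22d4 by 0.42.

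Sgk1, a kinase downstream of PI3 kinase and mTORC2 that both mineralocorticoids and glucocorticoids raise, rose with fasting and was much alike in the fed groups. Its level ran from 2.02 over 2.44 to 2.63 with water, from 1.68 over 2.37 to 2.85 with glucose, from 1.86 over 2.42 to 2.75 with fructose and from 2.91 over 3.43 to 3.89 when fasted. The lowest fasted mouse stood just above the highest fed one. Fasted minus water was 1.04 (SE 0.19, limma adjusted p = 9.43e-05), or 2.05-fold, and 1.07 and 1.04 against glucose and fructose. Within the slides it was 0.44, 1.51 and 1.16. The 3 fed means lay between 2.36 and 2.40. Over all genes 21.7% rose and 20.9% fell with fasting against water. Around Sgk1, 7 of 10 other kinases and substrates of its pathway rose and 1 fell, with a median log2 fold change of 0.48 against 0.02 over all genes. Its relative Sgk2 rose by 1.32 and Sgk3 fell by 0.48, and the substrates Nedd4l, a ubiquitin ligase, and Ndrg1 rose by 0.73 and 0.65.

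Dusp1, a phosphatase that switches off p38 and JNK, was not called in any of the 6 comparisons. Levels of Dusp1 ran from 2.96 over 3.41 to 3.65 with water, from 3.39 over 3.74 to 4.90 with glucose, from 2.83 over 3.96 to 4.85 with fructose and from 3.33 over 3.87 to 4.58 when fasted. Single mice in each of the last 3 groups stood above all water mice, and others lay among them. The differences from water were 0.50 for glucose, 0.50 for fructose and 0.50 for fasting (SE 0.30 each), with adjusted p of 0.575, 0.449 and 0.201 in limma. All 3 share the same 6 water mice. The likeness of these values rested on single mice, since glucose gave 0.29 without glucose mouse 6 and fructose 0.30 without fructose mouse 5, while leaving out 1 mouse put fasting between 0.36 and 0.61. The interval for fasting ran from -0.13 to 1.13. Of the other MAP kinase phosphatases, 5 of 10 rose in the fasted liver and 2 fell, where 21.7% of all genes rose and 20.9% fell. Dusp4 was up by 1.15, Dusp8 by 0.88 and Dusp5 by 0.73. Dusp10 fell by 0.71.

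Errfi1, the feedback inhibitor of EGF receptor signalling, rose by a modest amount at its brightest probe. Its level ran from 8.08 over 8.26 to 8.43 with water, from 7.70 over 8.22 to 8.41 with glucose, from 7.86 over 8.25 to 8.32 with fructose and from 8.58 over 8.75 to 8.84 when fasted. No fed mouse reached the fasted range. The fasting difference from water was 0.47 (SE 0.11, limma adjusted p = 0.00143), or 1.38-fold. The call against water was lost with normexp and quantile normalization (0.25, limma adjusted p = 0.0691), with quantile normalization alone (0.24, adjusted p = 0.103) and in the authors' deposited table (0.26, adjusted p = 0.0717), and so was that against fructose. A second probe, 13037 bases away and assigned by the array to another Errfi1 transcript, gave 1.37 (SE 0.11, adjusted p = 1.64e-09) and a level that ran from 2.51 to 3.04 with water and from 4.06 to 4.44 when fasted. Among EGF receptor family genes and their inhibitors the receptor Egfr fell by 1.33 and the cytokine signalling suppressor Socs2 by 2.33, and Erbb3 rose by 1.08 and the inhibitor Spred2 by 0.99. In that list 4 of 17 other genes rose and 6 fell, where 21.7% of all genes rose and 20.9% fell.

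The start-site regions of these signalling genes are printed because, of the windows searched for the 8 genes, they hold the full-length motifs. Each window is the 250 bases before a RefSeq transcription start on GRCm38.p6, read 5′ to 3′ along the gene's strand. They were searched on both strands for the glucocorticoid response element (AGAACA, any 3 bases, TGTTCT), a single arm of it (AGAACA or TGTTCT, which the full element contains), the forkhead core GTAAACA, the cyclic AMP response element TGACGTCA and its shorter form TGACG, which overlap. Capitals mark matches. The first window is 1 of 6 of Sgk1, chr10:21993640-21993889, and lies between the gene's first and last annotated starts; the others are the single window of Dusp1, chr17:26508473-26508722 on the minus strand, and 1 of 2 of Errfi1, chr4:150854820-150855069.
Sgk1: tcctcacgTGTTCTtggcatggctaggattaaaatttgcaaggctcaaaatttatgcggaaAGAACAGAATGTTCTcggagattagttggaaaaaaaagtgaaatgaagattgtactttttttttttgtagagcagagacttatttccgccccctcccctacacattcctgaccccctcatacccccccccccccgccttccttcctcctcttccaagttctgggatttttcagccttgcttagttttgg
Dusp1: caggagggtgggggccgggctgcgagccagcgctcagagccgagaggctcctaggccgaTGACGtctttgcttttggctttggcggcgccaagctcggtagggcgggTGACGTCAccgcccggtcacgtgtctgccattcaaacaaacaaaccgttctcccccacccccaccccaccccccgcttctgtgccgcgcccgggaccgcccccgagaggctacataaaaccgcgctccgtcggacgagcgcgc
Errfi1: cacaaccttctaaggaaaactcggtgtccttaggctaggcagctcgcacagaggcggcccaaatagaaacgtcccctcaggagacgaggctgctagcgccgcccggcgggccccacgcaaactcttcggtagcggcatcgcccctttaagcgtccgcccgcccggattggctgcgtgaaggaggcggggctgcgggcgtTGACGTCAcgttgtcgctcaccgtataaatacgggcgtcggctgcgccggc
The Sgk1 window holds a full glucocorticoid element 189 to 175 bases before the start, a match found in 3 of 32841 windows of the mouse table, or 0.00913%. The Dusp1 and Errfi1 windows each hold the full cyclic AMP element, at 143 to 136 and at 51 to 44 bases before the start, which 1.55% of windows hold. The short forms are common (16.1% of windows for the glucocorticoid arm and 17.8% for TGACG). No window of Fkbp5 or Cdkn1a held any of these motifs. That absence says little, since the full elements are rare in all windows and only 250 bases before each start were searched. The forkhead core, present in 3.17% of windows, was in no window shown or searched for the members. A match describes letters only, and binding was not measured.

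Cdkn1a, the cell cycle inhibitor p21, had the largest change of the 8 genes and ranked 58 of 23966 genes by size of change. The level ran from -0.93 over 0.81 to 1.60 with water, from -0.40 over 0.36 to 2.51 with glucose, from -0.39 over 0.22 to 1.80 with fructose and from 3.80 over 4.35 to 4.88 when fasted. Fed mice varied among themselves by several fold, and all fasted mice stood above them. The rise over water was 3.71 (SE 0.44, limma adjusted p = 3.46e-07), or 13.1-fold, and within the slides it was 3.78, 3.25 and 4.11. It was 3.64 against glucose and 3.90 against fructose. A dimmer probe of another transcript, 2.08 kb away, was well above background on all 6 fasted arrays and on 1 water, 3 glucose and no fructose arrays. It thus passed the filter on dim probes only through the fasted arrays, so its difference is not read as support for the rise. Among other cyclin-dependent kinase inhibitors, 3 of 6 rose and 2 fell, where 21.7% of all genes rose and 20.9% fell. Cdkn1c rose by 0.46 and Cdkn2c by 0.33, and Cdkn2b fell by 1.03 and Cdkn2a by 0.98.

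**Figure D2:**
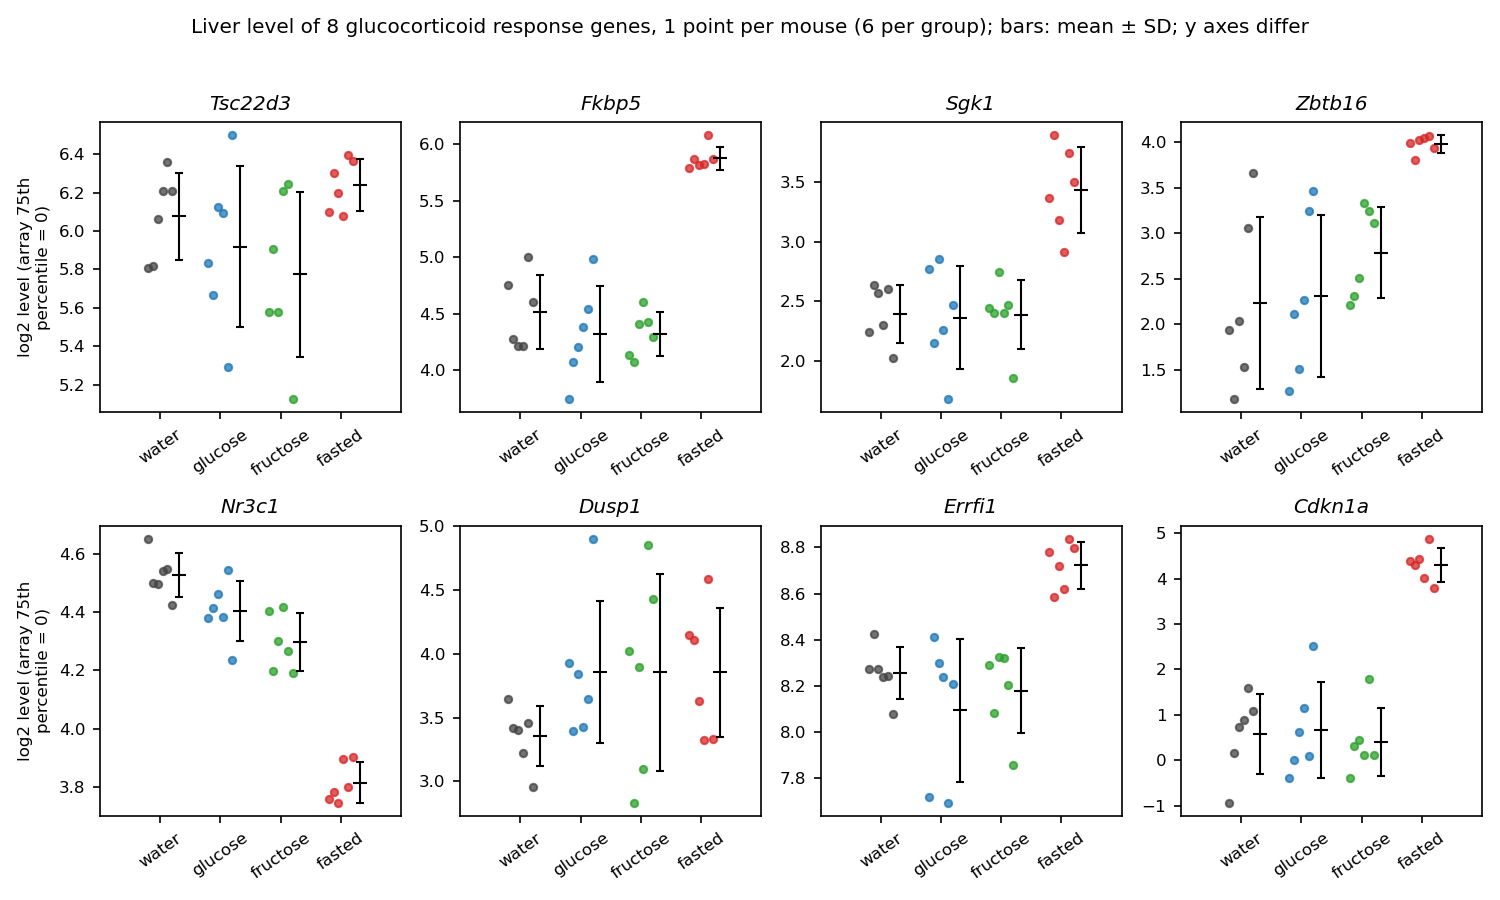
Log2 level of the 8 genes in each of 24 mice, 6 per group, with mean ± SD beside the points; 0 is the array's 75th percentile, and y axes differ between panels. Fasted mice stand clear of every fed mouse in 6 panels, below them for Nr3c1, and mix with them for Tsc22d3 and Dusp1, while Zbtb16 and Cdkn1a show the widest fed spread.

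The sugars were compared with water to see whether 24 hours of glucose or fructose drinking altered these genes in fed mice. None of the 8 genes was called with glucose (0.83% of all genes were) or with fructose (0.88%), and none between fructose and glucose (0%). In limma, 1 of the 8 had an unadjusted p under 0.05 in each comparison with water and 0 had one between the sugars. Over all 23966 genes 2743 had one with glucose and 3809 with fructose, both against water, and 1869 between the sugars, where the lowest adjusted p was 0.0672. The gene nearest to a call was Nr3c1 with fructose, at -0.23 (SE 0.057, adjusted p = 0.0514 in limma). All 6 fructose mice lay below all 6 water mice, by a small margin; such a gap was seen in 1.77% of genes. The glucose value was -0.13 (adjusted p = 0.384), and fructose minus glucose was -0.11 (interval -0.22 to 0.012). Within the slides fructose minus water for Nr3c1 was -0.14, -0.29 and -0.26. Summed hepatocyte markers also separated these groups, at 6429 to 7086 with fructose and 7140 to 8421 with water. Of the 10 markers, 2 were called lower with each sugar against water. Summed lymphocyte markers were 31.7 to 47.9 with fructose and 49.6 to 58.9 with water, but 0 of the 11 measured were called. Such a sum is weighted to bright markers, and the bright Cd4 (5.33 with water) stood at -0.45 (limma adjusted p = 0.116). The part of these marker differences in the Nr3c1 value was not tested. For Sgk1 the intervals were narrow enough to bound a change: -0.42 to 0.36 with glucose and -0.40 to 0.38 with fructose. For Zbtb16 and Cdkn1a they were wider, for example -0.83 to 0.99 for Cdkn1a with glucose, so larger differences could not be seen there.

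Where a gene had several kept probes, their fasting differences from water shared a direction but not a size. All 15 kept probes are shown in the plot of fasting differences by probe. Nr3c1 fell at both its probes, by 0.71 and by 0.47. Disagreements in size were widest in Fkbp5, followed by Cdkn1a and Errfi1. A dim Fkbp5 probe of another transcript, 98.6 kb from the brightest one, gave 2.54 (SE 0.38, limma adjusted p = 9.00e-06). It was well above background on 4 of 6 water arrays and on all 6 fasted arrays, so the water level, and with it the size, is partly set by arrays where the probe was not measured above background. For Cdkn1a the probes gave 3.71 and 2.66, the second being the dim probe that was well above background on 1 water array. That probe was kept only through the fasted arrays, so its direction does not count as agreement. For Errfi1 the probes gave 0.47 and 1.37, with intervals that do not meet. The 3 probes not kept, of Tsc22d3, Sgk1 and Cdkn1a, were each well above background on 1 array only.

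**Figure D3:**
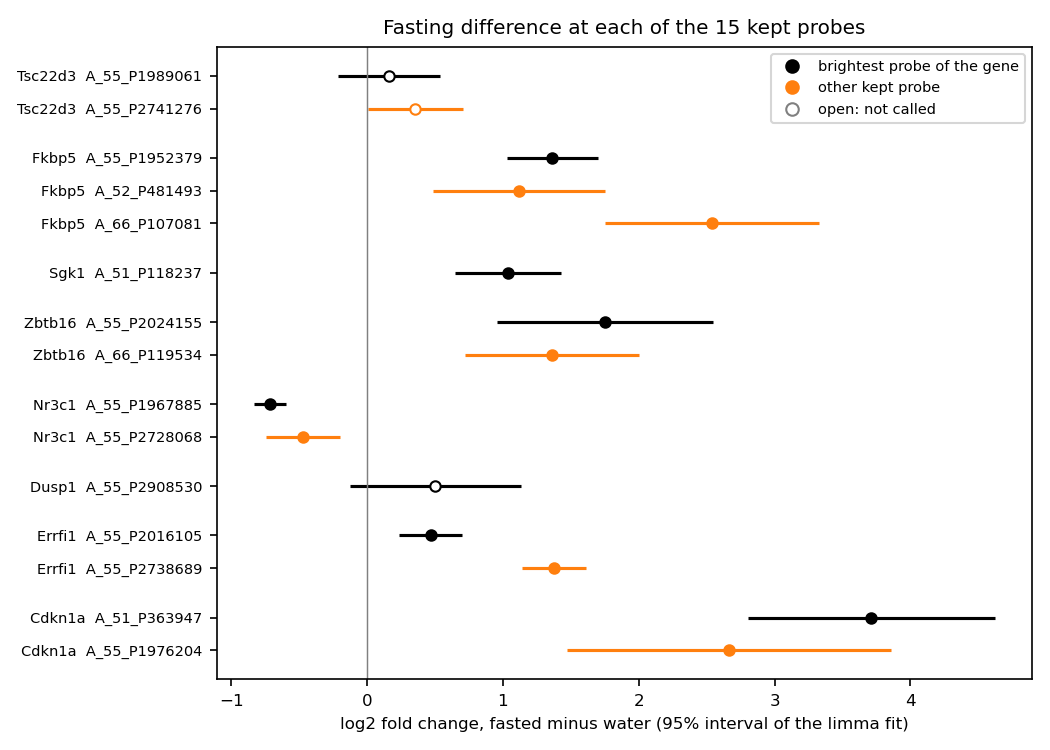
Fasted minus water log2 fold change with 95% interval of the limma fit at each of the 15 kept probes of the 8 genes, the brightest probe in black and others in orange, open where not called. Probes of one gene lie on the same side of 0. Sizes differ most for Fkbp5, from 1.12 to 2.54, then for Cdkn1a, at 3.71 and 2.66, and Errfi1, at 0.47 and 1.37. The 2.54 and 2.66 are from dim probes not above background on every water array. The dim Cdkn1a probe was kept only through the fasted arrays, so its side does not count as agreement.

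Within groups, some of the genes varied together from mouse to mouse. Each mouse's deviation from its group mean was correlated for the 28 pairs of the 8 genes over 24 mice, with 100000 permutations within groups. Fkbp5 and Zbtb16 gave Pearson r = 0.764 (permutation p = 0.00102, adjusted over 28 pairs 0.022) and Spearman rho = 0.741 (permutation p = 0.0012, adjusted 0.0168). Without the 2 mice farthest from the median in Fkbp5, r was 0.668, and within the slides it was 0.75, 0.62 and 0.902. It was 0.629, 0.906 and 0.798 in the water, glucose and fructose groups and 0.267 in the fasted group, where both genes hardly varied. Tsc22d3 and Cdkn1a gave r = 0.683 (permutation p = 0.00157, adjusted 0.022) and rho = 0.695 (permutation p = 0.00079, adjusted 0.0168). Without 2 mice r was 0.759, and within the slides it was 0.432, 0.61 and 0.918. By group it was 0.917, 0.801 and 0.536 with water, glucose and fructose and 0.22 in the fasted mice. The other 26 pairs did not pass; the nearest was Nr3c1 with Cdkn1a at r = -0.577 (permutation p = 0.00997, adjusted 0.0931; rho = -0.523, permutation p = 0.0134, adjusted 0.125), with r of -0.428 without 2 mice and -0.54, 0.351 and -0.795 within the slides. Fkbp5 with Tsc22d3 gave r = 0.36 (permutation p = 0.152, adjusted 0.355) and Fkbp5 with Sgk1 -0.114 (permutation p = 0.672, adjusted 0.786).

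**Figure D4:**
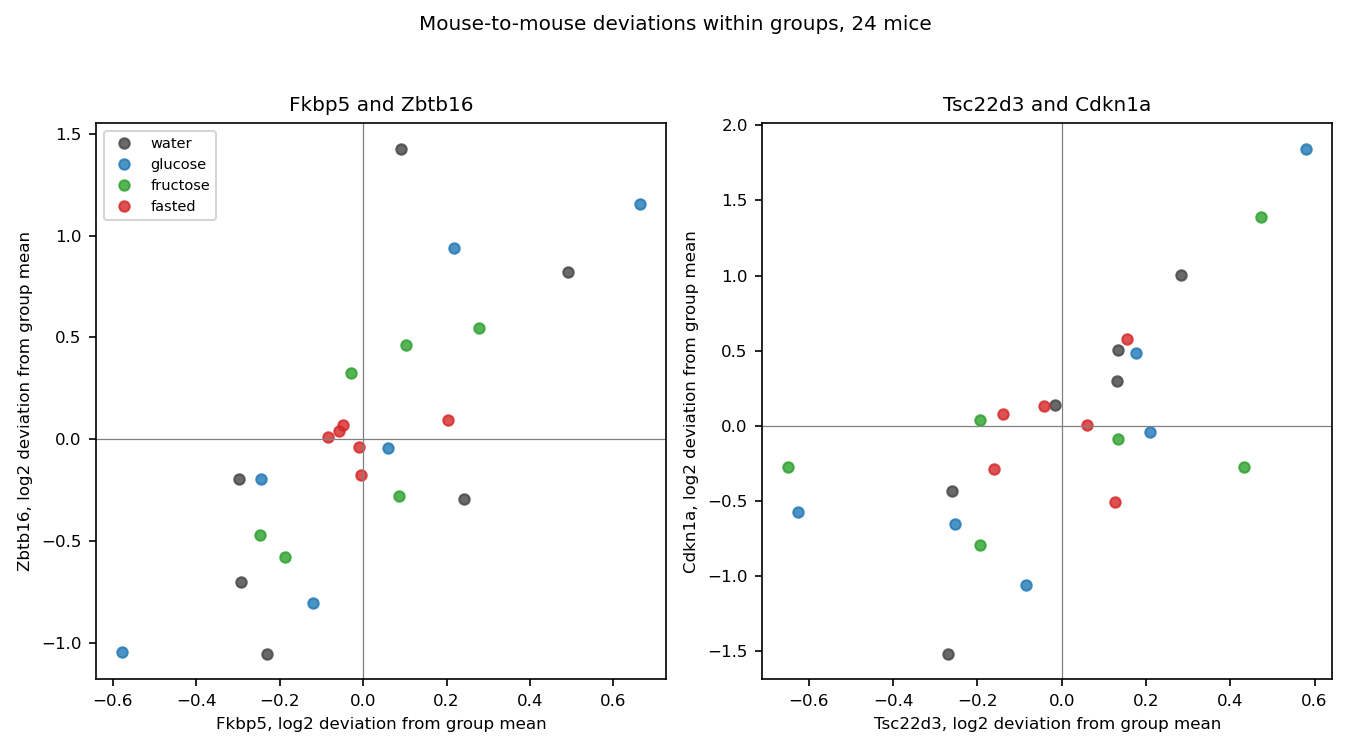
Deviation of each of 24 mice from its group mean, in log2 units, for Zbtb16 against Fkbp5 and for Cdkn1a against Tsc22d3, coloured by group. Both clouds rise from lower left to upper right (r = 0.764 and 0.683), and the fasted mice of the first panel cluster near 0.

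Among 17459 other named genes, the ones that deviated most like each member over the 24 mice are given as a description. For Tsc22d3 they were Arrdc2 (r = 0.83), Tat (0.811), the tyrosine aminotransferase long used as a glucocorticoid readout in liver, and Trim25 (0.77). For Cdkn1a they were Slc45a3 (0.886), Tat (0.783) and Gm11827 (0.777). For Sgk1 they were Abcc2 (0.818), a bile canalicular transporter, Nfkbia (0.798), which holds back NF-kappaB, and Arl4d (0.788). For Errfi1 the closest was Cebpd (0.826), for Dusp1 Pip4k2a (0.772) and for Nr3c1 Kdm5b (0.749). The closest gene to Fkbp5 was Zbtb16, and the reverse was also true (0.764). By a second measure, the root mean square difference of levels scaled to unit SD, which follows the group pattern as well, the closest were Arrdc2 for Tsc22d3 (0.572), Srgap2 for Fkbp5 (0.313), Abcc2 for Sgk1 (0.393), Rad54l2 for Zbtb16 (0.48), Magt1 for Nr3c1 (0.294), Pip4k2a for Dusp1 (0.738), Cebpd for Errfi1 (0.433) and Gm11827 for Cdkn1a (0.283). Tat itself rose by 1.28 in the fasted liver (SE 0.19, limma adjusted p = 1.07e-05), Cebpd by 1.43, and Arrdc2 stood at 0.58 (adjusted p = 0.0583).

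Genes around the receptor gave a split picture. Of 39 other genes known to be raised by glucocorticoids, 28 rose in fasted against water mice and 3 fell, with a median log2 fold change of 0.96 against 0.02 over all genes. In that comparison 21.7% of all genes rose and 20.9% fell. The metallothioneins Mt2 and Mt1, which bind zinc and copper, rose by 5.68 (SE 0.60) and 4.51 (SE 0.46), the insulin-like growth factor binding protein Igfbp1 by 3.68 and the sulfotransferase Sult1e1 by 3.35, all with limma adjusted p of at most 1.12e-06. Klf13, Tfcp2l1 and Ccl9 fell, by 0.61, 0.60 and 0.42. The clock gene Per1 stood at 0.17 and the NF-kappaB inhibitor Nfkbia at 0.14, neither called. Many genes of the list, Igfbp1 and Pck1 among them, are also targets of other fasting signals, so the list does not read the hormone alone. The list was also chosen with earlier results of these data known, so its counts and median are a description and not a test. Against glucose 27 of 39 rose and 4 fell, and against fructose 26 rose and 2 fell, where 44.6% and 45.3% of all genes were called. With glucose 1 of the 39 changed against water: Sds, the serine dehydratase, fell by 0.76 (adjusted p = 0.0131). With fructose 0 did. Over all genes 0.83% were called with glucose and 0.88% with fructose.

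**Figure D5:**
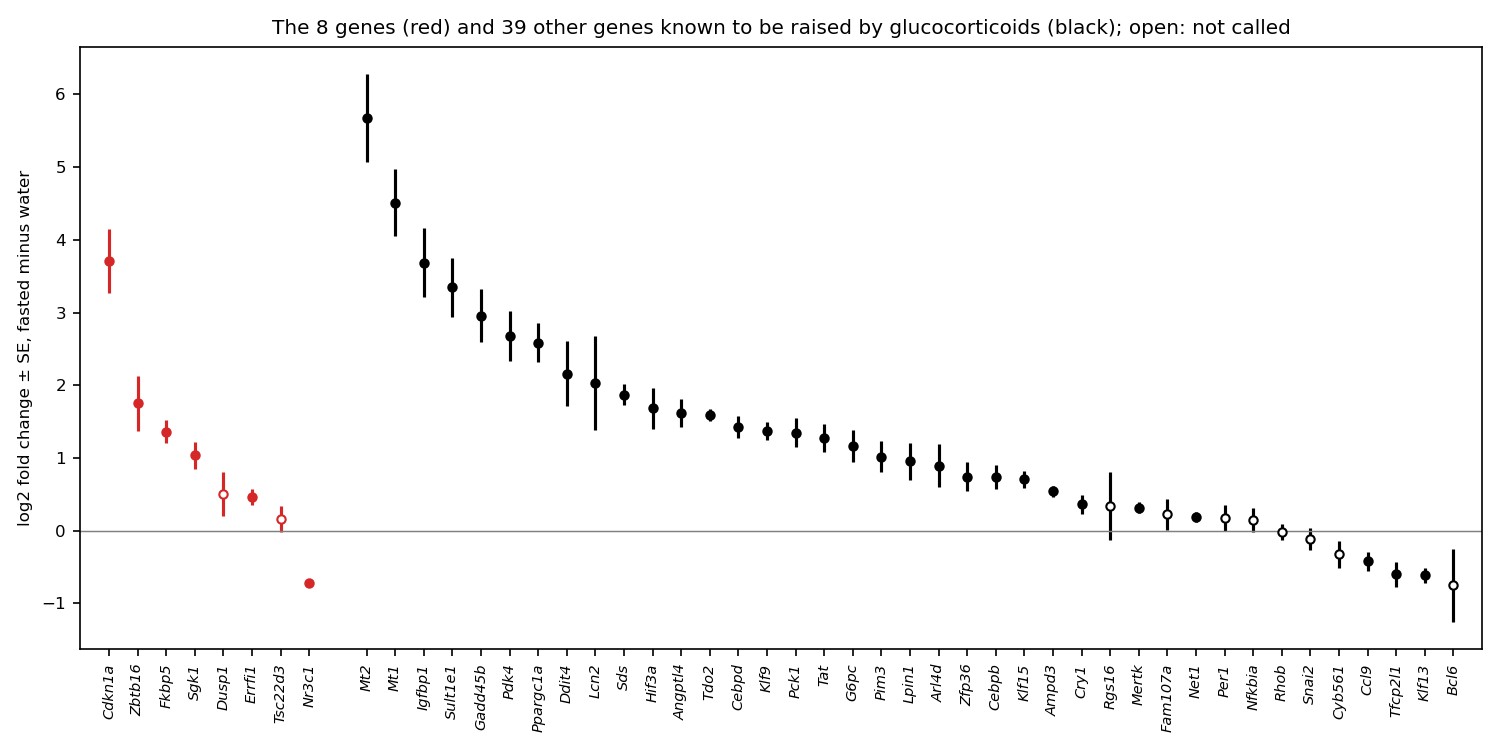
Fasted minus water log2 fold change ± SE for the 8 genes (red) and 39 other genes known to be raised by glucocorticoids (black), sorted by size within each set; open points were not called. The black points run from Mt2 at 5.68 to Bcl6 at -0.75, and 28 filled ones lie above 0 and 3 below. Over all genes 21.7% were called higher and 20.9% lower. The 39 genes were chosen with earlier results of these data known.

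Chaperones of the receptor complex leaned the other way, and its coregulators did not. Of 17 chaperones and transport factors of the complex, 1 rose and 8 fell, where 42.6% of all genes were called. Their median was -0.26 against 0.02 over all genes. Fkbp4, the immunophilin that opposes Fkbp5 in the complex, fell by 1.11 (SE 0.11, limma adjusted p = 4.23e-08), Hsp90aa1 by 0.93, Stip1 by 0.79 and Ppid by 0.59, and Hspa4 rose by 0.27. Hsp90ab1 stood at -0.065 and was not called. Across the FK506-binding family 1 of 13 other genes rose and 5 fell. The mineralocorticoid receptor Nr3c2, the closest relative of Nr3c1, fell by 1.44. Of 20 coregulators 8 rose and 3 fell, with a median of 0.09. Of 13 genes of steroid supply and clearance 3 rose and 6 fell. Hsd11b1, which regenerates corticosterone in the liver, stood at -0.19 (adjusted p = 0.055). Corticosteroid-binding globulin, Serpina6, fell by 0.79, the 5-alpha reductase Srd5a1 by 1.48 and Akr1c14 by 1.96, and Cyp3a13 rose by 1.25. With glucose Cyp3a11 fell by 0.64 against water (adjusted p = 0.0421).

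Lists for other signals, and for ZBTB relatives, are given beside the 42.6% of all genes called with fasting (21.7% higher, 20.9% lower). These lists share genes with the list of glucocorticoid-raised genes above, so their counts and medians are not separate observations. Shared are Igfbp1, G6pc, Pck1, Klf15, Bcl6 and Pdk4 of the FOXO list and Gadd45b, Zfp36 and Rhob of the immediate early list. Of 19 other FOXO targets 13 rose and 2 fell, with a median of 0.97. Pdk4, which holds pyruvate dehydrogenase inactive, rose by 2.68 and the cyclin Ccng2 by 2.08. Of 19 other p53 targets 9 rose and 5 fell, with a median of 0.23. Btg2, which slows proliferation, rose by 1.5 and Ei24 by 1.17, and Gadd45a fell by 2.00 and Plk2 by 1.21. Of 24 immediate early genes 14 rose and 1 fell, led by the transcription factor Egr1, up by 3.6, and the stress-induced Gadd45b, up by 2.96. The AP-1 subunit Junb rose by 1.55. Of 12 other ZBTB genes 5 rose and 4 fell, with a median of -0.02. With fructose, Zbtb7a rose by 0.29 against water (adjusted p = 0.0268).

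Markers of other cells were read on the same arrays. Of 7 measured neutrophil markers 4 were called higher and 1 lower with fasting. Their summed level was 1.70 to 3.22 times the array's 75th percentile in fed mice and 1.18 to 25.5 in fasted mice, high in fasted mice 2 and 4 at 25.5 and 22.4. Without those 2 mice, a choice made after seeing the data, the same 6 of 8 genes were called against water, with Cdkn1a at 3.78, Zbtb16 at 1.78, Fkbp5 at 1.38, Sgk1 at 1.05, Errfi1 at 0.53 and Nr3c1 at -0.73. The summed level of 8 cholangiocyte markers was 4.03 to 10.2 in fasted mice and 7.54 to 15.2 in fed mice, with 3 lower and 0 higher. Kupffer cell markers summed to 104 to 165 in fasted and 78.4 to 147 in fed mice, with 2 of 10 higher. Of 10 stellate cell markers 4 were lower, Col3a1 by 1.85, and 1 higher, and their sum was 101 to 119.7 in fasted and 84.9 to 120.8 in fed mice. Of 6 adipocyte markers 2 were higher, with sums of 5.38 to 10.08 in fasted and 4.34 to 7.59 in fed mice. Of 3 measured pancreatic acinar markers 1 was lower, the elastase Cela1, and the sum was 12.7 to 22.5 in fasted and 21.9 to 39.9 in fed mice. Endothelial markers were split, with 3 of 10 higher and 2 lower. Among 11 lymphocyte markers 3 were lower and 0 higher, while their sum was 44.1 to 64.0 in fasted and 31.7 to 58.9 in fed mice. Of 5 red cell markers 1 was lower, and 1 of 4 skeletal muscle markers was higher. These counts stand beside 42.6% of all genes called in fasted against water mice. Several, such as those of Kupffer cell and lymphocyte markers, fall below that share. The part of the marker differences in the fasting values was not tested.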

How the data were processed

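Liver RNA of 24 single mice was measured on 24 one-colour arrays. Per the file headers, Agilent Feature Extraction 10.10.1.1 made each scanner file, whose processed intensity is background-subtracted and not normalized between arrays. The authors' deposited series table holds log2 values of 35967 probes, whose column medians lie between 7.3834 and 7.3902; its normalization is not given in the sources used here, and it served as an alternative. Controls and outlier spots were left out. Log2 intensities were averaged per probe and centred on the array's 75th percentile. Probes well above background on at least 6 of 24 arrays were kept (36230 of 56605), and the brightest kept probe stood for a gene. One fit of 4 group means was made with limma 3.58.1 (lmFit, eBayes; R 4.3.3, data.table version 1.17.8), with Benjamini-Hochberg adjustment over 23966 genes per comparison. The fit was tested on simulated data. The list genes named were called genes with the largest fasting change, up to 4 per list, plus any called with a sugar; Per1, Nfkbia, Pck1, Hspa4, Hsp90ab1, Hsd11b1, Serpina6, Sgk3, Klf13, Tfcp2l1, Ccl9 and Bcl6 were added after their values were seen. The members and lists were chosen with earlier results of these data known. The mice are separate animals. Promoter windows are RefSeq's on GRCm38.p6: 6 of the 8 genes matched and are used, Zbtb16 has no entry, and the Nr3c1 window is not reported here. The number of arrays limits the precision. Alternatives changed the background correction, scaling, filter, probe choice, blocks, weights and arrays used.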

Additional observations from a re-analysis of the deposited data

Results flagged for a closer look

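Over 8 genes and 4 groups, 32 sets of 6 mice were searched for a mouse set apart from its group; chance alone gives about 1 in 20. There were 2. Fkbp5 in fasted mouse 5 was 6.08, where the next mouse was at 5.87. Dusp1 in glucose mouse 6 was 4.90, where the next mouse was at 3.93.

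Probes too dim to be kept gave a signal on 1 array. In fructose mouse 1 the Tsc22d3 probe A_55_P2719913 reached -3.14, where the highest water mouse was at -5.65. In the same mouse the Sgk1 probe A_52_P352246 reached -2.54, where the highest water mouse was at -6.65. Both were well above background on that array only.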

How the results depend on the processing

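Of 48 differences (8 genes in 6 comparisons), 19 were called, and 16 of these kept their call and sign in all 25 alternatives. The others were Tsc22d3 in fasted minus fructose and Errfi1 in fasted minus water and fasted minus fructose. The number of the 8 genes called in fructose minus water went from 0 to 1 with normexp and quantile normalization, with the deposited series table, with probes above background on 12 arrays, with array weights and with the limma trend, each time through Nr3c1. With 1 mouse left out it ranged from 0 to 1. Nr3c1 had adjusted p from 0.0205 to 0.25 there in limma. Tsc22d3 was called in fasted minus glucose with the mean of its probes, at 0.47 (adjusted p = 0.0328). Among 29 uncalled differences 14 changed sign in some alternative, and no called one did. Replicate numbers were checked for pairing of the mice. Deviations from group means correlated at 0.0334 on average for the same number (-0.173 to 0.22, 9 of 36 pairs above 0.1). The average was -0.00671 for different numbers, and 8 of 24 arrays matched their own number best. Whether these values depart from chance was not tested. The replicate block left 6, 6 and 6 genes called in the fasting comparisons and 0 in the others; it ended the Tsc22d3 call (adjusted p = 0.0603). Over all genes, calls with glucose ranged from 90 to 524 and with fructose from 65 to 500, against 199 and 211.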
